A study of Danio rerio with 20 samples.

Results

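Zebrafish embryos exposed to dimethylformamide (DMF) at 0.1 ml/L were compared with embryos exposed to dimethyl sulfoxide (DMSO) at the same 0.1 ml/L. The comparison rested on 7 RNA pools, chosen by their group labels and the scan names in the file headers. They were all 4 pools of the DMF100 group and pools 2, 3 and 4 of the DMSO100 group, out of 20 in the series. These 7 pools were hybridised on 12 of the 20 arrays, as 6 pairs of pools each measured on 2 two-colour cDNA arrays with the dyes exchanged. DMSO100 replicate 1 was left out, because 1 of the 2 files of its pair names the scan of another array.

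The other groups of the design were DMF25 and DMSO25, exposed to the same solvents at 0.025 ml/L, and an unexposed control. All groups were whole embryos at 48 h post fertilisation, of a breeding stock for which the labels give no strain, exposed from early cleavage on and kept singly in wells at 26 °C. A plate carried 20 exposed embryos, each group had 5 plates, and 1 RNA sample was made from all surviving embryos of a plate. Arrays were run on 4 such samples per group. Death on a plate therefore removed embryos from its pool, and the unit of replication was the pool of a plate.

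DMSO and DMF are small, polar, water-miscible solvents that carry poorly soluble chemicals into fish embryo toxicity tests, DMSO as a sulfoxide and DMF as a dimethylated amide. At 48 h the embryo has a beating heart, a segmented hindbrain, pigment cells and growing fin buds. In a whole embryo a difference in RNA between pools can come from fewer cells of a type or from less RNA per cell, and pooled arrays cannot tell these apart. The solvents were matched by volume, not by number of molecules.

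Values are log2 ratios of fluorescence, so a difference of 1 is a doubling, and negative values mean less signal with DMF than with DMSO. Of 16407 probes, 3652 had a ratio in at least 8 of the 9 pairs of the model and were tested. Arrays were sorted into 3 scan batches by the leading characters of the scan names in their headers. The sample labels name no batch. Across the 6 pairs with a pool of either group, 38.9% to 46.4% of the spots were above the lowest confidence grade in the second scan batch and 56.2% to 67.4% in the third. Most probes carry only a GenBank record name. Of the 47 genes to which a symbol could be given, 14 were tested. None of the 54 listed markers of 10 cell types was among them, so the makeup of the pools and the embryo label could not be checked against marker genes. None of the 18 listed xenobiotic and stress response genes was among them either.

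DMF at 0.1 ml/L gave lower signal than DMSO at 0.1 ml/L for 24 probes and higher signal for 0. The 24 probes are 0.657% of the 3652 tested (limma, Benjamini-Hochberg adjusted p under 0.05, with adjusted p from 0.0040 to 0.0477). Their fitted difference had a median of −2.08, a 4.24-fold lower level, and ranged from −3.40 to −1.40, with standard errors from 0.249 to 0.517. Over all tested probes the median was 0.04. At an unadjusted p under 0.05, limma placed 465 probes (12.7%) on either side, 231 lower (6.33%) and 234 higher (6.41%), so the one-sidedness of the calls was not seen at the looser threshold. The 3 probes just outside the threshold had differences of −1.04 ± 0.219, −0.94 ± 0.197 and −2.33 ± 0.488 (SE), with adjusted p of 0.0501, 0.0530 and 0.0530 in limma. None of the 24 carries a gene symbol in the reference tables. Leaving out the pair DMF100 replicate 3 with DMSO100 replicate 4 ended all 24 calls, while the median of the same probes was then −1.76. Leaving out the pair DMF100 replicate 1 with control replicate 3 raised the count to 83, of which 62 were lower and 21 higher. It was 59 without DMSO100 replicate 3 and control replicate 4. It was 10 without DMF100 replicate 4 and DMSO25 replicate 4, and also 10 without DMF25 replicate 4 and DMSO25 replicate 3.

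The call with the smallest p was the expressed-sequence record BM155941, for which neither the files nor the reference tables give a gene. Its log2 ratio was −3.38 in DMF100 replicate 3 over DMSO100 replicate 4, the one pair that joins the groups on the same arrays. DMSO100 replicate 2 over DMSO25 replicate 2 read 4.17, and DMSO100 replicate 3 over control replicate 4 read 2.34. The record was thus high in each of the 3 DMSO100 pools against its partner. The record was picked by p from these same ratios and both their dye orientations, so they describe the call and do not test it. The fitted difference below can be too large in size for the same reason. The DMF100 pools did not stand on one side. DMF100 replicate 1 over control replicate 3 read 1.21, DMF100 replicate 4 over DMSO25 replicate 4 read 0.00, and DMF100 replicate 2 over DMF25 replicate 3 read −1.19. Single arrays were read after subtraction of the probe's mean dye effect, estimated from the arrays of the 9 modelled pairs, these included. Apart from 1 pair, the array of each dye orientation then had the same sign as its partner. The exception was DMF100 replicate 4, at 0.27 with its RNA in Cy5 and −0.27 with it in Cy3. The fitted difference was −3.14 ± 0.380 (SE; 95% interval −3.96 to −2.33), an 8.83-fold lower level with DMF, with an adjusted p of 0.0040 in limma.

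The record AW116863, also without a gene here, followed with a fitted difference of −2.65 ± 0.372 (SE; 95% interval −3.45 to −1.85, adjusted p 0.00864 in limma), a 6.29-fold lower level. Its direct ratio of DMF100 replicate 3 over DMSO100 replicate 4 was −3.09. DMSO100 replicate 2 over DMSO25 replicate 2 read 3.41, and DMSO100 replicate 3 over control replicate 4 read 1.50. Again the 3 DMSO100 pools lay above their partners, in ratios from which this record was also picked. The DMF100 pools were closer to theirs, at 0.79 for replicate 1 over control, 0.23 for replicate 4 over DMSO25 and −1.07 for replicate 2 over DMF25. With the mean dye effect subtracted in the same way, both dye orientations gave the same sign in all 6 of these pairs.

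The same layout held over the 24 probes as a set, whose selection used these ratios, so that the values describe the calls and do not test them. In DMSO100 replicate 2 over DMSO25 replicate 2 the median of the 24 was 2.00 (0.78 to 4.32), and 24 of 24 were above 0. In DMSO100 replicate 3 over control replicate 4 the median was 1.11 (−0.02 to 2.78), with 1 of 24 below 0. In the direct pair it was −2.26 (−4.06 to −1.06), with 24 of 24 below 0. These 3 pairs hold the 3 DMSO100 pools, and in each the DMSO100 side was the brighter. The 3 pairs that hold a DMF100 pool without a DMSO100 pool had smaller medians of both signs. DMF100 replicate 4 over DMSO25 replicate 4 gave −0.76 (17 of 22 below 0), DMF100 replicate 2 over DMF25 replicate 3 gave −0.44 (22 of 24 below 0), and DMF100 replicate 1 over control replicate 3 gave 0.38 (2 of 24 below 0). Over all tested probes the medians of the 9 pairs lay between −0.08 and 0.11.

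**Figure D1:**
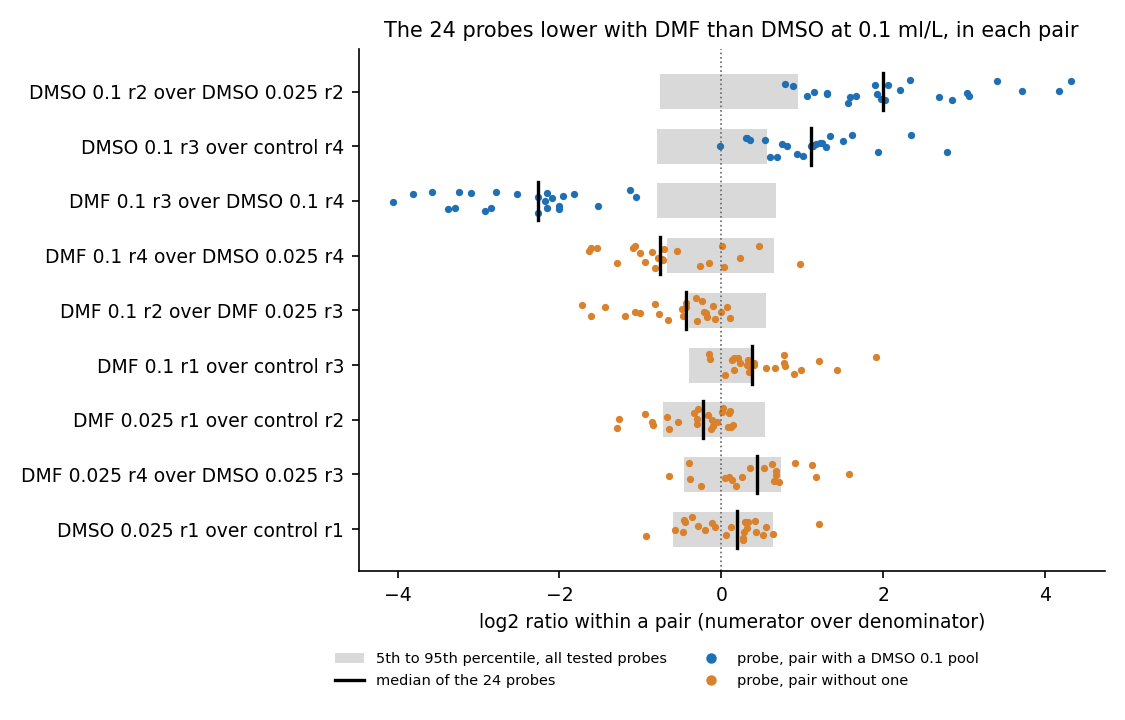
Log2 ratio (horizontal axis) of the 24 probes that passed the threshold, in each of the 9 pairs of pools of the model (rows; r stands for replicate, doses in ml/L); points are probes, the black bar is their median and the grey band spans the middle of all tested probes. The 3 rows with a DMSO 0.1 ml/L pool, in blue, hold medians of 2.00, 1.11 and −2.26, and the 6 rows without one, in orange, hold medians between −0.76 and 0.44.

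Set against control in the same fit, the 24 probes had a median of 1.65 (0.73 to 3.68) for DMSO100 and of −0.41 (−0.90 to 0.39) for DMF100. These estimates share pools with the difference between the solvents and are given side by side only. BM155941 was at 3.13 ± 0.380 with DMSO100 and −0.01 ± 0.352 with DMF100 (SE), both relative to control. AW116863 was at 2.47 ± 0.372 and −0.18 ± 0.345 respectively. The only pair that joins a DMF100 pool to control, DMF100 replicate 1 over control replicate 3, read on the other side. Its median over the 24 probes was 0.38, with 2 of 24 below 0, against 22 of 24 below 0 in the fit. In that pair BM155941 read 1.21 and AW116863 read 0.79.

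The difference could be reached by 3 routes that share no pool and no array. The direct route was the pair of DMF100 replicate 3 with DMSO100 replicate 4. The route through control was DMF100 replicate 1 over control replicate 3 minus DMSO100 replicate 3 over control replicate 4. The route through DMSO25 was DMF100 replicate 4 over DMSO25 replicate 4 minus DMSO100 replicate 2 over DMSO25 replicate 2. The routes disagreed in size for the 24 probes. The direct median of −2.26 and the DMSO25 median of −2.81 (−4.28 to −1.88, 22 of 22 below 0) were several times the median through control, −0.50 (−1.44 to 0.09, 21 of 24 below 0). Of the 22 probes with all 3 routes, 19 were below 0 in each and 2 were at or below −1 in each. Among the 3187 tested probes with all 3 routes, 409 were below 0 in each (12.8%), 623 were above 0 in each (19.5%), 2 were at or below −1 in each (0.0628%) and 0 were at or above 1 in each. BM155941 read −3.38, −1.13 and −4.16 by the direct, control and DMSO25 routes, and AW116863 read −3.09, −0.71 and −3.18.

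Probes chosen on the direct route alone can be read on the other routes without reuse of a pool. Of the 99 probes at or below −1 on the direct route, 93 were below 0 through DMSO25 (93.9%, against 47.7% of all tested probes), where their median was −1.41 and 63 were at or below −1. Through control their median was −0.02 and 52 were below 0 (52.5%), against 42.0% of all tested probes. The probes low with DMF on the direct arrays were therefore low on 1 of the other 2 routes and near 0 on the remaining one. Of the 38 probes at or above 1 on the direct route, 29 were above 0 through DMSO25 (76.3%, median 0.57), against 52.3% of all tested probes. Through control 16 were above 0 (42.1%, median −0.02), against 58.0% of all tested probes. Across the 3187 probes the direct and DMSO25 routes had a Pearson correlation of 0.50 and a Spearman correlation of 0.37. The direct and control routes had 0.03 and −0.01, and the control and DMSO25 routes had 0.09 and 0.07. These correlations are across probes that share arrays and are not independent replicates.

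**Figure D2:**
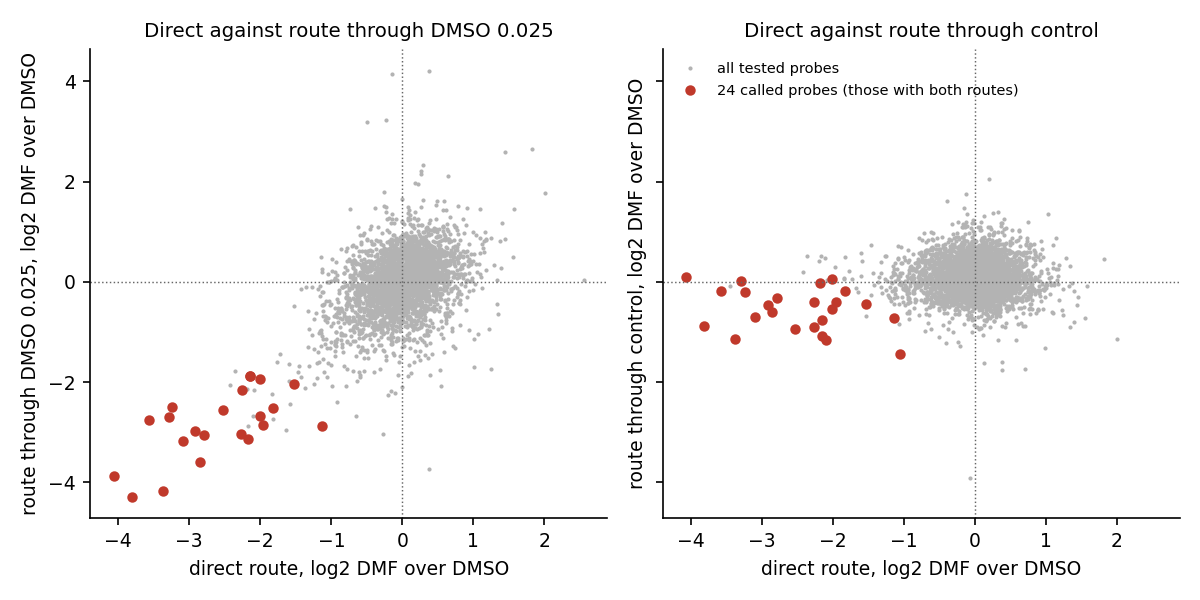
Log2 DMF over DMSO at 0.1 ml/L by the direct route (horizontal axes) against the route through DMSO 0.025 ml/L (left) and through control (right); grey points are tested probes with both routes and red points the called probes. On the left the red points lie low on both axes, with medians of −2.26 and −2.81; on the right they lie near a median of −0.50 on the vertical axis.

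Signal strength and scan batch moved with the routes. The median probe on DMSO100 replicate 3, the DMSO pool of the route through control, was 1.21 and 1.40 times as bright as the empty spots of the same array in its 2 orientations. For DMSO25 replicate 4 these ratios were 1.38 and 1.27, and for DMSO25 replicate 2 they were 1.53 and 1.12. The other pools of the 6 pairs stood at 2.47 to 28.9 times the empty spots. The direct pair was read in the third scan batch, the DMSO25 route in the second, and the route through control joined a pair from each. With each probe's mean dye effect subtracted, the exchanged arrays of the direct pair had a Pearson correlation of 0.65 across probes. In the other 5 pairs it was 0.23 to 0.51. The part of signal strength and batch in the difference between the routes was not tested.

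The 24 probes were not confined to a corner of the array: they lay in 19 print blocks, with at most 3 in 1 block, and came from 17 source plates. Their brightness spanned percentiles 3.31 to 97.3 of the tested probes, with a median of 74.5. Source plate 02 held 5 of the 24 (20.8%) against 90 of the 3652 tested probes (2.46%), and its row b held 4 of the 24 among 8 tested. The other 85 tested probes of that plate had a median difference of −0.03 (−1.78 to 0.66), with 3 at or below −1 and 0 at or above 1. On the other plates 50 of 3562 tested probes were at or below −1 and 12 at or above 1. Records whose names start with AF made up 5 of the 24 (20.8%) and 130 of all tested probes (3.56%). These were the same 5 probes as those from source plate 02, so the 2 shares are not separate observations. These shares are descriptions of the calls, with no test.

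At 0.025 ml/L the same solvents gave no call. The contrast DMF25 minus DMSO25 passed limma's adjusted threshold for 0 of 3652 probes (0%). Unadjusted p-values under 0.05 were found for 326 probes (8.93%), of which 125 were lower (3.42%) and 201 higher (5.5%) with DMF. For the 24 probes its median was 0.01 (−1.39 to 1.14), with 12 of 24 below 0. BM155941 was 1.14 ± 0.380 (SE) with an adjusted p of 0.498 in limma, and AW116863 was 0.73 ± 0.372 with an adjusted p of 0.600. Both thus had the opposite sign to their difference at 0.1 ml/L, without passing the test.

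The difference between the concentrations was tested in itself, as the solvent difference at 0.1 ml/L minus that at 0.025 ml/L. It passed for 12 probes, each with a more negative solvent difference at 0.1 ml/L, and for 0 in the opposite direction (0.329% of those tested, limma with Benjamini-Hochberg adjustment). At an unadjusted p under 0.05 there were 476 probes (13%), 271 of them lower (7.42%) and 205 higher (5.61%). BM155941 was among the 12 at −4.28 ± 0.497 (SE, adjusted p 0.00251 in limma), and AW116863 at −3.38 ± 0.488 (adjusted p 0.0131). The 24 probes, chosen on a term of this difference, had a median of −2.25 (−4.46 to −0.43). Most of the 24 did not pass this test, and the 12 included probes outside the 24. The probe of the 24 with the lowest solvent difference at 0.025 ml/L, −1.39 ± 0.384 (SE), was at −1.82 ± 0.283 at 0.1 ml/L. Its change of −0.43 ± 0.430 did not pass (adjusted p 0.714 in limma). Leaving out single pairs moved the count of 12 between 0 and 44. It was 44 without the pair DMF100 replicate 1 with control replicate 3, and 32 without DMSO100 replicate 3 with control replicate 4. It was 1 without DMSO100 replicate 2 with DMSO25 replicate 2 or without DMF100 replicate 2 with DMF25 replicate 3, and 0 without DMF25 replicate 4 with DMSO25 replicate 3 or without the direct pair.

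**Figure D3:**
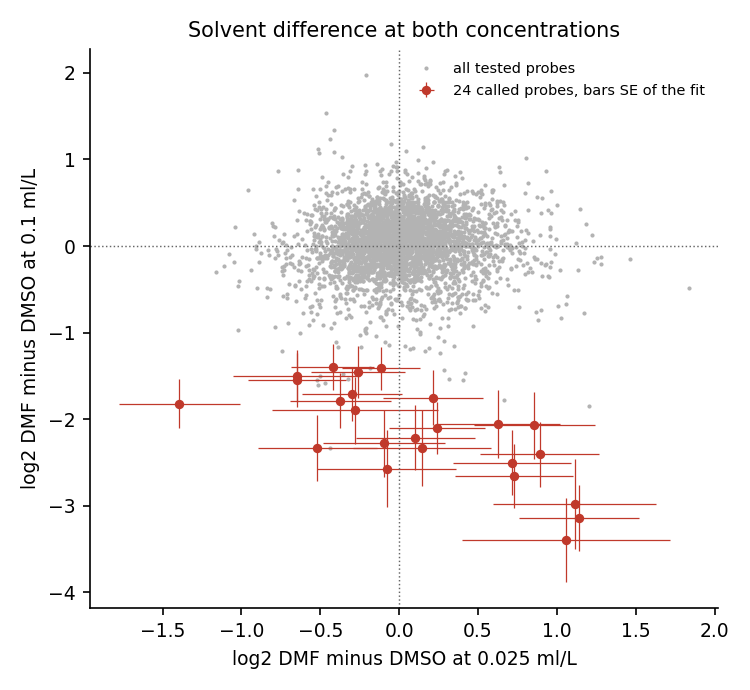
Fitted log2 difference of DMF minus DMSO at 0.025 ml/L (horizontal axis) and at 0.1 ml/L (vertical axis) for all tested probes (grey) and the 24 probes called at 0.1 ml/L (red, bars are standard errors of the fit). The red points lie between −3.40 and −1.40 on the vertical axis and on both sides of 0 on the horizontal axis, from −1.39 to 1.14.

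The 14 tested genes with a symbol are mostly transcription factors that pattern the embryo, and none passed the threshold between the solvents at 0.1 ml/L (smallest adjusted p 0.542 in limma) or had an unadjusted p under 0.05. Of them 8 were above 0 and 6 below, with a median of 0.06 beside 0.04 over all tested probes. Their 95% intervals reached 0.440 to 0.920 to each side of the estimate. A miss of the threshold does not show that the solvents act alike on a gene. The intervals below are those of the reported fit alone. Some estimates in other settings lay outside them, such as hoxa13b at −0.46 in the second scan batch alone. That batch held only replicate 4 of DMF100. With a term for replicate number in the fit, dlx5a was at 2.16 ± 0.723 (SE, adjusted p 0.491 in limma). It had ratios in 8 pairs, and that term left fewer residual degrees of freedom. Both fits had larger standard errors for these genes than the reported fit.

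The dlx genes encode distal-less homeodomain factors of forebrain interneurons, pharyngeal arches and fins, and 3 of the 8 on the array were tested. The forebrain gene dlx1a differed by 0.20 ± 0.205 (SE; 95% interval −0.24 to 0.64) and its neighbour dlx2a by 0.08 ± 0.209 (−0.37 to 0.53). Both intervals leave out a doubling in either direction. For dlx5a, which acts in jaw, ear and fin fold, the difference was −0.58 ± 0.425 (−1.50 to 0.34), with −0.44 on the direct route, 0.06 through control and no value through DMSO25. At 0.025 ml/L dlx5a was at 1.06 ± 0.425 (adjusted p 0.547), and its change between the concentrations was −1.64 ± 0.520 (adjusted p 0.248, limma). This was the smallest adjusted p for that change among the 14, and it did not pass.

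The hox genes set position along the body axis, and 3 of the 7 on the array were tested. The hindbrain gene hoxb1b differed by −0.05 ± 0.243 (SE; 95% interval −0.58 to 0.47), and hoxb5a, active in the posterior hindbrain and trunk, by −0.18 ± 0.252 (−0.72 to 0.37). For hoxa13b, a gene of the distal fin bud, the difference was 0.23 ± 0.263 (−0.34 to 0.79), and the routes read 0.62 directly, 0.06 through control and −0.76 through DMSO25. The estimates lay on both sides of 0, and so did the routes of each of the 3 genes. In the same order the routes read 0.14, −0.30 and 0.17 for hoxb1b and 0.04, −0.05 and −0.30 for hoxb5a.

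Among regulators of hindbrain, spinal cord and ear, 3 of the 4 on the array were tested, and each estimate was below 0. For mafba, which is needed for hindbrain segments at the level of the ear, it was −0.25 ± 0.248 (SE; 95% interval −0.79 to 0.28), with −0.04, −0.23 and −0.60 by the direct, control and DMSO25 routes. For hmx3a, of the ear and lateral line, it was −0.15 ± 0.216 (−0.62 to 0.31), and for dbx1b, of spinal interneuron progenitors, −0.06 ± 0.212 (−0.51 to 0.40). Only mafba of these 3 was below 0 on all 3 routes, which 12.8% of all probes with 3 routes also were.

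The immediate early factor egr1 differed by 0.40 ± 0.286 (SE; 95% interval −0.22 to 1.01), with routes of 0.68, −0.88 and 0.95 in the same order. The zinc finger factor zeb1b, a repressor of epithelial genes, differed by 0.10 ± 0.224 (−0.38 to 0.58). The spread of egr1 over the routes was larger than its estimate.

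The insulin-like growth factor receptor gene igf1rb differed by 0.43 ± 0.279 (SE; 95% interval −0.17 to 1.03). Without DMSO100 replicate 3 and control replicate 4 its estimate was 0.14, and without DMSO100 replicate 2 and DMSO25 replicate 2 it was 0.66. It was above 0 on all 3 routes, at 0.32 directly, 0.66 through control and 0.20 through DMSO25, as were 19.5% of all probes with 3 routes. At 0.025 ml/L it was at 0.35 ± 0.279 (adjusted p 0.759, limma). The retinoic acid receptor gene rarga differed by 0.21 ± 0.294 (−0.42 to 0.85), and naca, a subunit of the complex that binds nascent chains at the ribosome, by 0.05 ± 0.253 (−0.50 to 0.59). In the fit over all 9 pairs the order of the 14 genes by estimate ran from dlx5a to igf1rb, and neighbours in that order lay closer together than the larger of their standard errors.

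**Figure D4:**
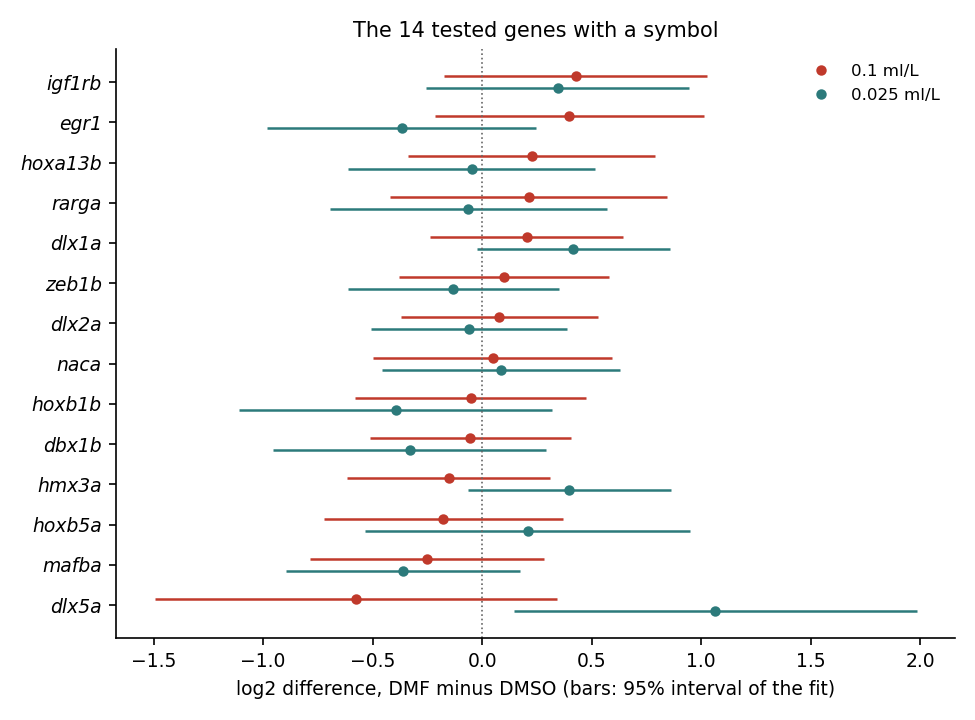
Fitted log2 difference of DMF minus DMSO (horizontal axis) for the 14 tested genes with a symbol (rows), at 0.1 ml/L (red) and 0.025 ml/L (green), with 95% intervals of the fit as bars. All 14 red bars cross 0, from −0.58 for dlx5a to 0.43 for igf1rb; the green bar of dlx5a, at 1.06, lies above 0 and did not pass after adjustment.

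A further 33 genes with a symbol had too few ratios to be tested, and 16 of them had a ratio on the direct pair. These single ratios, with no error, ran from −0.25 for dlx3b, a factor of the ear and olfactory placodes, to 0.52 for tlx2. The thyroid hormone receptor gene thrb was at −0.23, the forebrain factor hesx1 at 0.28, the hindbrain factor egr2b at −0.04 and the retinol carrier rbp4 at 0.02. The kidney and heart factor wt1a was at −0.01 and the insulin-like growth factor receptor igf1ra at −0.05. None of the 16 reached 1 in either direction. For rbp4 the other routes read 0.02 through control and −1.79 through DMSO25. The other 17 genes had no ratio on that pair.

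The count of calls depended strongly on the processing, the model and the pairs used. Over 23 alternative settings the median of the 24 probes lay between −2.54 and −1.74, with every measured probe of them below 0 in each setting. The 24 were chosen for their differences in the reported fit, and the settings reuse the same arrays. Their medians therefore describe the calls and do not test them. The count ranged from 0 to 233. It was 0 in 6 of the settings, not all of them changes of processing alone. The authors' value table and the fit with all low-confidence spots kept tested 16407 probes in place of 3652. A background from the empty spots kept the 3652. A term for replicate number left fewer residual degrees of freedom, and another setting left out the direct pair. The second scan batch alone held only replicate 4 of DMF100 and is read by its median, −2.54. A fit of separate channels with scan batch as a term called 233 of 2685 probes, of which 129 were lower and 104 higher with DMF. That fit had no term for the pair, so exchanged arrays of the same pools counted as replicates in it.

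**Figure D5:**
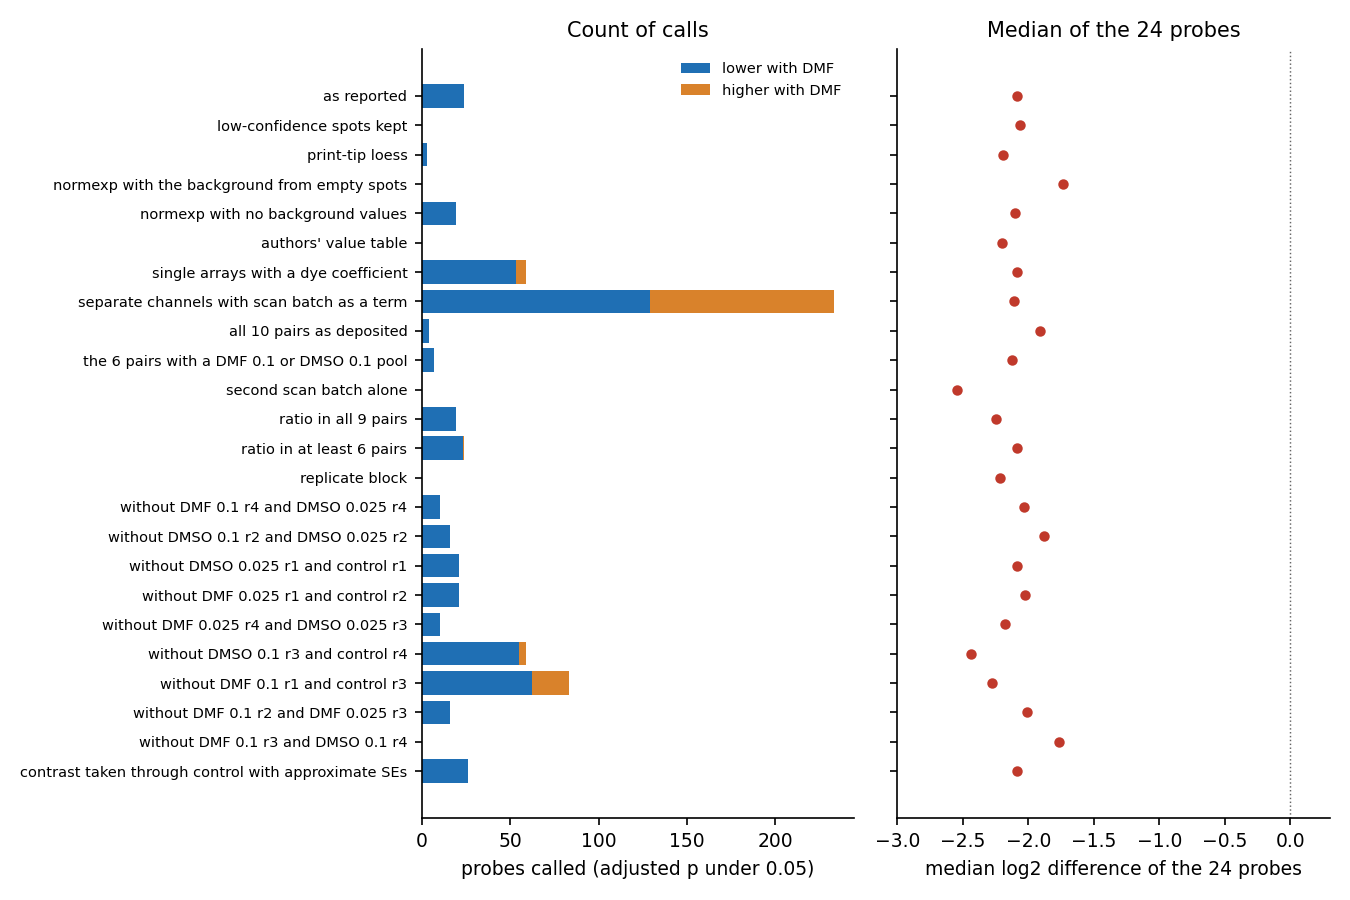
Number of probes called at 0.1 ml/L (left, bars from 0, lower with DMF in blue and higher in orange) and the median log2 difference of the 24 probes of the reported fit (right) for each processing setting (rows; r stands for replicate). The counts run from 0 to 233 and the medians from −2.54 to −1.74. The 24 probes were chosen on the same arrays, so the medians are a description.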

How the data were processed

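Each array file holds, per spot, amplitudes of both dyes, a fluorescence intensity that the authors extracted from the scans with BlueFuse (version 3.3 for 2 arrays and 3.6 for 18, per the file headers). No normalisation or background step is recorded for these intensities. The deposited value table of log2 ratios, whose scale and normalisation are not stated, had column medians from −0.0444 to 0.0654. Each of its 20 columns correlated best with its own array (Spearman 0.379 to 0.839), and it was used as an alternative only.

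Ratios were taken as log2 of Cy5 over Cy3 and turned to a common direction. The 750 control spots and spots of the lowest grade (confidence under 0.1) were dropped from 17328 spots, leaving probe spots that were fitted by loess per array (span 0.3, 4 iterations). Exchanged arrays were averaged to 1 ratio per pair. limma 3.58.1 in R 4.3.3 (lmFit and eBayes) was run on the 9 pairs of all 5 groups, with a coefficient for each group except the reference group. Probes with a ratio in at least 8 pairs were used, with 5 residual degrees of freedom and 8.67 from the prior. Adjusted p-values are Benjamini-Hochberg over all 3652 tested probes with a threshold of 0.05. 6 of the 24 called probes lacked a ratio in 1 pair, and limma fitted them on the remaining 8. The procedure was run on simulated data in which 200 of 3652 probes were changed. It recovered 83% of them at a true log2 difference of 1 and 100% at 2, with 3 false calls each. Such a run checks the recovery of planted differences and not the calls made here. The adjustment is less strict with 200 changed probes than with 24 calls, so the 83% is not the share of doublings found here. In the reported fit a probe at −1.04 ± 0.219 (SE) missed the threshold. Precision is limited by the number of pools and pairs, since exchanged arrays measure the same pools.

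The pair DMSO100 replicate 1 with DMF25 replicate 2 was left out: 1 of its files names the scan of another array, and those 2 arrays had a raw-ratio correlation of 0.881, while none of the remaining 189 array pairs exceeded 0.605. Replicate numbers were not treated as pairing pools, since no label says that they mark a shared day or batch. RefSeq accessions were matched to symbols without versions (47 genes), and all of these were named, along with the called records of smallest p, at most 2 for each direction. Symbols come from the RefSeq table of assembly GRCz12tu. Gene lists, groups and comparisons were chosen with earlier results of these data known. Alternatives covered confidence grade, loess, background, the value table, the model, the pairs used and the number of ratios required.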

Additional observations from a re-analysis of the deposited data

Results flagged for a closer look

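For 12 probes the solvent difference at 0.1 ml/L differed from that at 0.025 ml/L in limma's test of the difference itself (Benjamini-Hochberg adjusted p under 0.05), each being more negative at the higher concentration. BM155941 and AW116863 were among them, while most of the 24 probes called at 0.1 ml/L were not.

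The array outside the model, with DMSO100 replicate 1 in Cy5 over DMF25 replicate 2 in Cy3, was not used for any call. After removal of the dye mean of the 18 modelled arrays, 13 of the 24 probes had a ratio on it, with a median of 0.84 (−0.06 to 2.30) and 12 of 13 above 0, the DMSO100 side. Over 2045 tested probes the median was −0.03 and 47.1% were above 0. This is 1 orientation of 1 pair, so the dye effect of the single probe is removed only on average.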

How the results depend on the processing

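The count of 24 calls at 0.1 ml/L and the count of 12 for the difference between the concentrations were both 0 in several settings. The numbers of probes tested differed, so a larger count at an unadjusted p under 0.05 in limma need not be a larger share. In the reported fit these unadjusted counts were 465 and 476 of 3652, and the settings without a call follow. With low-confidence spots kept they were 520 and 916 of 16407. In the authors' value table they were 827 and 880 of 16407. A background from empty spots gave 260 and 283 of 3652. The replicate block gave 294 and 172 of 3253. Leaving out the direct pair, DMF100 replicate 3 with DMSO100 replicate 4, gave 212 and 277 of 3800. The second scan batch alone held only replicate 4 of DMF100 and is given by its median over the measured probes of the 24, −2.54. The counts of calls were 3 and 0 with print-tip loess, and 7 and 2 over the 6 pairs with a pool of either group. They were 59 and 47 with single arrays, a dye coefficient and the pair as a random block. Separate channels gave 233 and 278, with no term for the pair, so that exchanged arrays of the same pools counted as replicates. With all 10 pairs the first was 4. Leaving out each pair in turn gave 0 to 83 and 0 to 44. Without DMSO100 replicate 3 and control replicate 4 the first was 59, and without DMF100 replicate 4 and DMSO25 replicate 4, or DMF25 replicate 4 and DMSO25 replicate 3, it was 10. For the first count the remaining settings stayed within 1.5 times. These included 26 calls with approximate standard errors, an alternative added after seeing the data. The second count was 1 without DMSO100 replicate 2 and DMSO25 replicate 2, and 1 without DMF100 replicate 2 and DMF25 replicate 3. The causes were not tested.

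No named gene passed in any setting, and 315 of 350 values of genes and the 2 records kept direction and side. Both records lost their call in the same 6 settings, keeping −3.70 to −2.59 for BM155941 and −3.14 to −2.23 for AW116863 over all settings. Signs turned for hoxb1b (0.10) and naca (−0.0011) with all 10 pairs; for hoxb1b (0.041) and dbx1b (0.0096) over 6 pairs; for hoxa13b (−0.46), zeb1b (−0.046) and naca (−0.35) in the second batch; for hoxa13b (−0.014), dlx5a (2.16) and naca (−0.22) with the replicate block; and for naca (−0.055) with empty-spot background. Leaving out pairs moved naca from −0.18 to 0.35, hoxb1b from −0.23 to 0.041, dbx1b from −0.15 to 0.023, dlx2a from −0.026 to 0.16, rarga from −0.076 to 0.58 and hoxa13b from −0.12 to 0.48. The sign held for igf1rb (0.14 to 0.66), egr1 (0.15 to 0.71), dlx5a (−0.87 to −0.26), hmx3a (−0.32 to −0.0020), hoxb5a (−0.38 to −0.039), mafba (−0.44 to −0.16), dlx1a (0.12 to 0.27) and zeb1b (0.045 to 0.15), though the size of each moved by over 1.5 times.

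Of the pools on the routes through DMSO25 and control, 3 had a median probe close to the empty spots. What this does to those routes was not tested.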
